A study of Mus musculus with 43 samples.

Results

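The genes described here encode 7 subunits of the GABA-A receptor: the alpha subunits of Gabra2, Gabra3, Gabra4 and Gabra5, the gamma subunits of Gabrg1 and Gabrg3, and the delta subunit of Gabrd. Other alpha and gamma subunit genes are not analysed here. Their symbols were matched to Ensembl gene IDs, which found 7 of the 53379 genes counted in each RNA table. The ATAC regions inside their spans or within 1 kb of their starts were added, 70 of 165184 regions in the female table and 101 of 192919 in the male table. All 7 genes passed the filter on low counts in both RNA tables, as did 69 of the 70 female and all 101 male regions.

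The libraries come from wild-type Swiss Webster mice, 2 months old, kept after weaning either in standard housing (SH) or in environmental enrichment (EE), a larger cage with a running wheel, a tube, more nesting material and toys that were exchanged. Nuclei of the frontal cortex were fixed with paraformaldehyde, and those stained for NeuN, a protein of neuronal nuclei, were sorted for nuclear RNA-seq or ATAC-seq, which reads open chromatin from where a transposase can insert adapters. Female RNA comprised 6 EE and 6 SH libraries, male RNA 6 and 6, female ATAC 3 and 3, and male ATAC 6 and 7, 43 in all. Whether replicates come from separate animals is not in the labels, so each p measures the spread between these libraries, and sex and sequencing run cannot be told apart.

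GABA-A receptors are pentameric chloride channels and carry most fast inhibition in the cortex. The alpha subunit sets much of their kinetics, their place on the cell and their response to benzodiazepines. A gamma subunit is typical of receptors at synapses, whereas receptors with the delta subunit lie outside synapses and pass a steady current. Receptors with the alpha5 subunit also lie largely outside synapses, and alpha4 is a common partner of delta in the forebrain. In the brain, the gamma1 subunit is known as a restricted member of the family, with glia among the cells reported to carry it.

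Library totals in mega (M) ran from 10.6 to 15.4 M counts for female RNA, 10.4 to 14.6 M for male RNA, 19.1 to 26.3 M for female ATAC and 27.7 to 73.8 M for male ATAC. Neuronal markers were abundant in the RNA, with 4 of 5 listed markers detected above the filter, although Tubb3 was at 0 in every library. Markers of glia and vessels were present as well (32 of 38 listed markers in females, 31 in males). Their mean log2 level, centred on the libraries of each table, was highest in female SH replicate 2, while the other female libraries lay between -0.49 and 0.60, and lay between -0.67 and 0.40 in male libraries.

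In mm10, all 7 genes lie on the minus strand. Gabrg1 (ENSMUSG00000001260, chr5:70751047-70842617), Gabra2 (chr5:70957597-71095849) and Gabra4 (chr5:71569749-71658308) form a cluster on chromosome 5. Gabra5 (chr7:57407672-57510059) and Gabrg3 (chr7:56716465-57387188) lie side by side on chromosome 7. Gabra3 is on chrX:72432681-72656848 and Gabrd on chr4:155384980-155398112. The start of Gabrb1, on the plus strand, covers 0.221% of Gabra4. Because the strand setting of the counting is not given in the sources used here, counts of these genes, Gabra5 among them, could include reads from the opposite strand. Exons and introns were not assigned here, and the counts take in both.

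The starts of these genes differ widely in base composition, and each held or lay near an ATAC region, so the letters of 4 promoters are shown. The windows are 300 bases of RefSeq (GRCm38.p6) around each start, read 5′ to 3′ on the minus strand. They are those of Gabra2 at chr5:71095800-71096099, of Gabra4 at chr5:71658259-71658558, of Gabrg1 at chr5:70842568-70842867 and of Gabra3 at chrX:72656870-72657169, the first of 2 windows for this gene. Gabra2 is shown for its CG content, Gabra3 because it has none, Gabra4 for the highest RNA density and Gabrg1 for the RNA values below. Capitals mark matches on either strand to the GC box GGGCGG, the TATA box TATAAA or the CCAAT box CCAAT.
Gabra2: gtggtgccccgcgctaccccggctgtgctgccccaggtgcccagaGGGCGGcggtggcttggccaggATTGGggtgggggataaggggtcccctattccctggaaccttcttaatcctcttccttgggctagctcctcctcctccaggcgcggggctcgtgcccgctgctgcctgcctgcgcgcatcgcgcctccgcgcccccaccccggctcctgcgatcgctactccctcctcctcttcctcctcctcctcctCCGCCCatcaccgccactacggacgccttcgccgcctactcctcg
Gabra4: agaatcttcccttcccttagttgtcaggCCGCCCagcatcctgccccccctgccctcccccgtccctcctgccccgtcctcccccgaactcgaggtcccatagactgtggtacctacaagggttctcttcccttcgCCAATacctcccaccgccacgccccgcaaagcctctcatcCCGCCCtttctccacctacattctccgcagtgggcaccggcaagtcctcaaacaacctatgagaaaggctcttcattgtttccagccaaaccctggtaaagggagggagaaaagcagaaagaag
Gabrg1: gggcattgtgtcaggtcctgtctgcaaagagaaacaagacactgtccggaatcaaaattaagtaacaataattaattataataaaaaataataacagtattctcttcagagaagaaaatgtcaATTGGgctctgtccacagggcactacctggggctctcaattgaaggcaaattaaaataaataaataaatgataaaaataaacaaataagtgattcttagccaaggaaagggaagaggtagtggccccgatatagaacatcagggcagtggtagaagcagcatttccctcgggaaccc
Gabra3: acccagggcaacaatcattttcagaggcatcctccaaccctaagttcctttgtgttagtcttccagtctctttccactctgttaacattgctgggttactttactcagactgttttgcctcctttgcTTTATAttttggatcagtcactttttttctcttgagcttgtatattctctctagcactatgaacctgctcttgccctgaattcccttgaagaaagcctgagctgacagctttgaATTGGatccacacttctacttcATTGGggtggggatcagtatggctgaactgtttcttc

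The Gabra2 window is 70% G or C with 25 CG pairs, and that of Gabra4 58.7% with 12, against medians of 52.7% and 7 over all mouse promoters in the table. Windows of Gabrg3 (61%, 13 CG pairs) and Gabra5 (56.7%, 13) also lay above those medians. Gabrg1 stood below them at 38.3% and 3 CG pairs, and the Gabra3 window at 43% and 0. GC box letters occurred in Gabra2, Gabra4 and Gabrg3, and in 35.7% of the 32851 promoters. CCAAT letters occurred in Gabra2, Gabra3, Gabra4, Gabra5 and Gabrg1 (37.4% of promoters) and TATA box letters in Gabra3 (13.6%). Letters of 4 elements bound by activity-regulated or E-box factors were searched too: AP-1 as TGANTCA (7.81% of promoters), CRE as TGACGTCA (1.79%), Egr as GCGTGGGCG (0.612%) and the E-box CACGTG (7.15%). None of the windows of the 6 genes with an entry held them. No 2 of the matches found overlapped. Gabrd had no window to search.

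Per kb of gene span, Gabra4 had the highest and Gabrg1 the lowest nuclear RNA density of the 7 subunit genes in every group, and some of the genes between them overlapped. In female SH libraries Gabra4 was highest at 2.38 ± 0.22 CPM (counts per M counts of a library) per kb (SD, n = 6, as for all RNA groups), followed by Gabrg3 at 1.61 ± 0.16. Gabrd, at 1.34 ± 0.13, and Gabra2, at 1.27 ± 0.05, overlapped in range and were in the other order in males (1.25 ± 0.15 and 1.29 ± 0.02 in SH). Gabra5 (0.456 ± 0.061) and Gabra3 (0.406 ± 0.037) came next and overlapped in female libraries, but not in male libraries, where Gabra5 started at 0.501 and Gabra3 ended at 0.483. Gabrg1 was lowest in every group, at 0.075 ± 0.015 in female SH libraries. Its CPM also varied most between libraries, with a coefficient of variation of 27.2% over the 12 female and 20.0% over the 12 male libraries, against at most 13.5% for the other 6 genes.

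**Figure D1:**
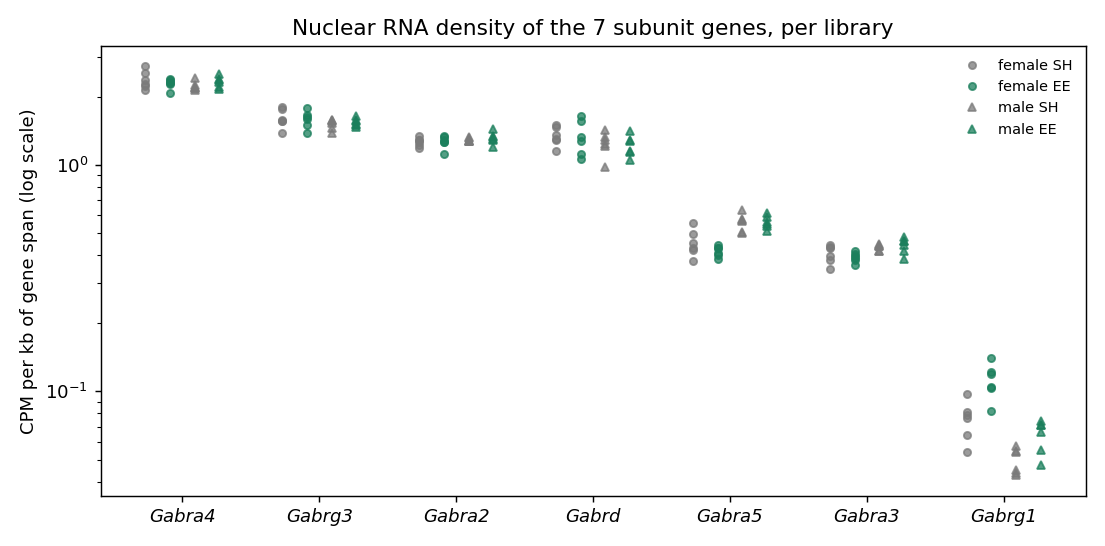
Nuclear RNA of each gene in CPM per kb of gene span, on a log axis, with 1 point per library (circles female, triangles male; grey SH, green EE; 6 libraries per group). Gabra4 is highest and Gabrg1 lowest in each of the 24 libraries, and the points of Gabra2 and Gabrd overlap.

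The first question was whether the nuclear RNA of these subunits differs with enrichment. Of the 7 genes, Gabrg1 alone had a log2 fold change (EE over SH) beyond 0.1 in size in both sexes. Gabra5 was at -0.13 in females and 0.00 in males, and no gene passed the adjusted threshold of 0.05 in either sex. Over all genes, edgeR called 0% of 14587 genes in females and 0.0411% of 14597 in males. At an unadjusted p under 0.05, 1 of the 7 genes passed in females (8.67% of all genes) and 1 in males (8.03%), Gabrg1 both times. An unadjusted p under 0.05 with a higher mean in EE in both sexes was met by 0.242% of the 14067 genes tested in both tables. The median log2 fold change of the 7 genes was -0.02 in females and 0.03 in males, against 0.00 and -0.01 over all genes tested.

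Of the 2 gamma subunit genes described here, Gabrg1 ran from 4.97 to 8.96 CPM in female SH libraries, with a median of 7.10, and from 7.49 to 12.9 in female EE libraries, with a median of 10.2. All 6 EE libraries lay above the SH median and 5 of 6 above the highest SH library, so the groups overlapped through EE replicate 3. The means were 10.3 ± 1.84 and 6.91 ± 1.37 CPM, a log2 fold change of 0.57 ± 0.14 (SE; adjusted p = 0.163, rank 67 by p). These levels rest on 61 to 167 reads per library.

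In male SH libraries Gabrg1 ran from 3.91 to 5.24 CPM, with a median of 4.53, and in male EE libraries from 4.32 to 6.76, with a median of 6.29. EE replicates 4 and 5 lay within the SH range, and the other 4 EE libraries lay above it. The means were 5.87 ± 0.97 and 4.53 ± 0.60 CPM, a log2 fold change of 0.37 ± 0.13 (adjusted p = 0.433, rank 340), from 47 to 80 reads per library. The difference between the sexes was 0.20 ± 0.20 in the sex by housing interaction (female minus male, 95% interval -0.19 to 0.59, adjusted p = 0.796), where 0.00643% of 15562 genes were called. For the other 6 genes this difference lay between -0.13 and 0.01, with adjusted p from 0.648 to 0.986.

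A fit of both sexes with sex as a covariate, chosen after these values had been seen, gave Gabrg1 a log2 fold change of 0.48 ± 0.10 (adjusted p = 0.0504). It ranked 5 of 15562 genes, of which 0.0129% were called, and did not pass. Of 30 alternatives to this fit, 8 called Gabrg1, blocks of equal replicate numbers among them (0.48, adjusted p = 0.0356, 11 genes called in all). Those 8 alternatives also called more genes in all, from 3 without female EE replicate 3 to 36 with DESeq2, against 2 in this fit. In the female table, 4 of 19 alternatives called it: Gabrg1 passed with the replicate block (0.57, adjusted p = 0.0301), with DESeq2 (0.56, adjusted p = 0.0312), with no filter on low counts (0.58, adjusted p = 0.00424) and without SH replicate 2 (0.66, adjusted p = 0.0334). Those settings called more genes overall too: 95, 121, 168 and 85, against 0. Leaving out other libraries kept the female value between 0.49 and 0.64 and uncalled. Over all alternatives the adjusted p ran from 0.00424 to 0.352 in females and from 0.265 to 0.653 in males, where none passed.

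**Figure D2:**
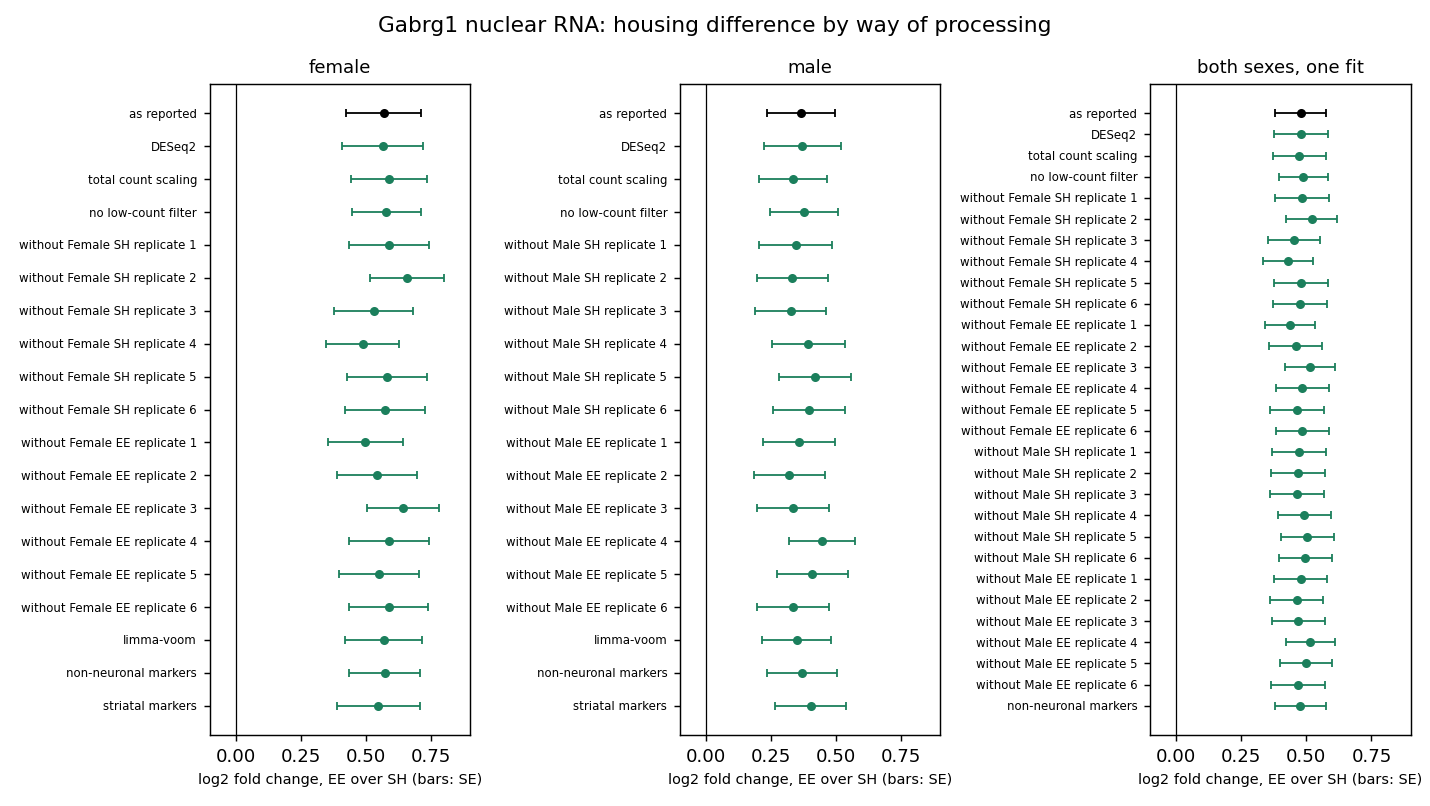
Log2 fold change of Gabrg1 nuclear RNA, EE over SH, as reported (black) and with other tools, scalings, filters, left-out libraries or marker covariates (green), with bars of 1 SE. Every value lies above 0, between 0.49 and 0.66 in females and between 0.32 and 0.45 in males.

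Female SH replicate 2, with the highest non-neuronal marker level, also had the highest Gabrg1 level of its group (8.96 CPM). Among female EE libraries the highest marker level, 0.60 in replicate 3, went with the lowest Gabrg1 level (7.49 CPM). The summed non-neuronal markers spanned 1266 to 2207 CPM in SH and 1212 to 1652 in EE in females, and 2430 to 3106 in SH and 2489 to 3216 in EE in males. Of the microglial markers, Itgam was at 0 in every library, and the 10 astrocyte markers were all detected. In females, 4 of 10 astrocyte and 1 of 9 oligodendrocyte markers were higher in EE. In males these were 9 of 10 and 9 of 9, and no marker of either list was called in either sex. With the marker level as a covariate, the Gabrg1 difference was as large, at 0.57 ± 0.14 in females (adjusted p = 0.0709) and 0.37 ± 0.13 in males. That level is a mean over mixed markers of glia and vessels, so it cannot stand for a single cell type. The part of any single cell type in the Gabrg1 difference was not tested. In bulk libraries such as these, more cells of a type and more RNA per cell cannot be told apart.

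Markers of striatal projection neurons, which a frontal cortex dissection can include, also varied between female libraries. Their mean log2 level ran from -1.17 to 0.21 in SH and from -0.65 to 0.72 in EE (summed level 1700 to 2461 and 1576 to 2469 CPM, 12 of 12 markers detected). In males 9 of 12 were detected, with levels of -0.19 to 0.30 in SH and -0.27 to 0.11 in EE. With that level as a covariate, Gabrg1 had a log2 fold change of 0.55 ± 0.16 in females (adjusted p = 0.314) and 0.40 ± 0.14 in males. Of the striatal markers, 10 were higher in EE and 2 lower in females (median log2 fold change 0.42), and 3 and 6 in males (-0.05). Excitatory neuron markers were higher in 1 and lower in 8 of 9 cases in females (median -0.17), and in 2 and 7 in males (-0.03). In females 5 of these 9, all lower in EE, had an unadjusted p under 0.05, against 8.67% of all genes. No marker of either list was called, and the part of excitatory neurons in the Gabrg1 difference was not tested.

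**Figure D3:**
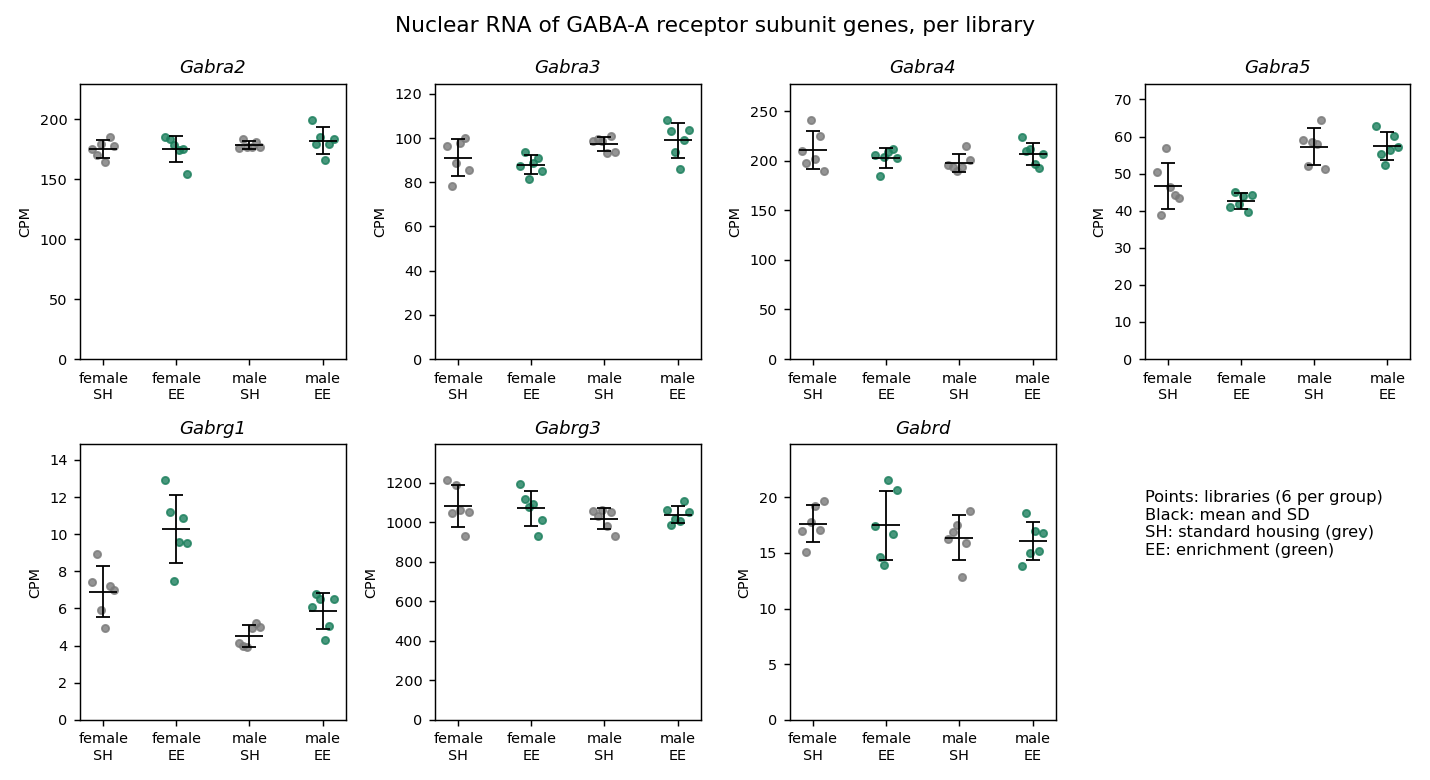
Nuclear RNA of each gene in CPM, with 1 point per library (6 per group) and the mean and SD in black; the vertical axis of each panel starts at 0. Gabrg1 is the panel in which most EE libraries lie above SH, 5 of 6 above the highest SH library in females and 4 of 6 in males.

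Gabrg3, the other gamma subunit gene described here and the longest of the 7, had 929 to 1212 CPM in female SH libraries (median 1058) and 929 to 1192 in EE (median 1084). The groups overlapped throughout, with a log2 fold change of -0.02 ± 0.07 (adjusted p = 0.966). In males SH libraries spanned 929 to 1062 CPM (median 1042) and EE libraries 987 to 1109 (median 1034), with a log2 fold change of 0.03 ± 0.04 (adjusted p = 0.907). The 95% intervals were -0.15 to 0.11 and -0.05 to 0.11.

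Each of the 4 alpha subunit genes overlapped between housings in both sexes. Gabra2, a subunit of synaptic receptors that include those on the axon initial segment, had a median of 177 CPM in both female groups (SH 165 to 186, EE 154 to 185). Its log2 fold change was -0.00 ± 0.05 in females and 0.03 ± 0.04 in males (SH 176 to 183 CPM, EE 166 to 200). Male EE libraries spread on both sides of the narrow SH range, 3 above it and 1 below.

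Gabra3, an X-linked subunit gene, had a median of 92.6 CPM in female SH libraries (78.1 to 99.9) and 88.0 in EE (81.5 to 93.6), with all EE libraries inside the SH range. The log2 fold change was -0.05 ± 0.06 (adjusted p = 0.86). In males the SH range was 93.1 to 101 CPM (median 98.7) and the EE range 86.1 to 108 (median 101.0), with a log2 fold change of 0.02 ± 0.05.

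Gabra4, the usual partner of delta, had a median of 206 CPM in female SH libraries (189 to 242) and 205 in EE (184 to 212), a log2 fold change of -0.05 ± 0.06 (adjusted p = 0.836). In male libraries it was at 195 (189 to 215) and 208 (192 to 224), with 5 of 6 EE libraries above the SH median and a log2 fold change of 0.06 ± 0.04 (adjusted p = 0.744). The groups overlapped in both sexes.

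Gabra5 was the alpha gene with the largest female difference, at a log2 fold change of -0.13 ± 0.07 (95% interval -0.28 to 0.02, adjusted p = 0.67). Female SH libraries spanned 38.7 to 56.8 CPM (median 45.4) and EE libraries 39.6 to 45.2 (median 42.8). All 6 EE libraries lay below the SH median yet inside the SH range. In males Gabra5 had a median of 58.3 CPM in SH (51.3 to 64.6) and 56.8 in EE (52.4 to 62.9), with a log2 fold change of 0.00 ± 0.06.

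Gabrd, the delta subunit gene and the shortest of the 7, had a median of 17.4 CPM in female SH libraries (15.1 to 19.6) and 17.0 in EE (13.9 to 21.5). The EE libraries spread wider, 2 above and 2 below the SH range, around a log2 fold change of -0.01 ± 0.11 (adjusted p = 0.989). In males the medians were 16.6 in SH (12.8 to 18.8) and 15.98 in EE (13.9 to 18.6), a log2 fold change of -0.03 ± 0.09 (adjusted p = 0.962).

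**Figure D4:**
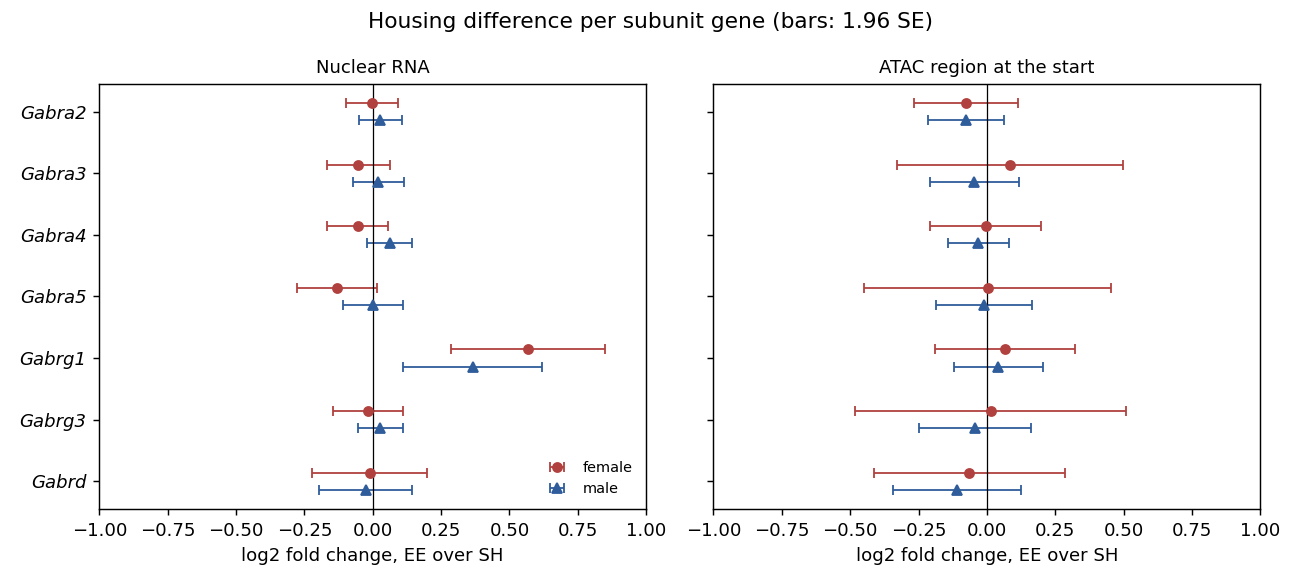
Log2 fold change of EE over SH for each gene in nuclear RNA (left) and in the ATAC region at or nearest to its start (right), with bars for the 95% interval (red circles female, blue triangles male). Gabrg1 RNA lies at 0.57 and 0.37 with bars that stay above 0, and every other bar crosses 0.

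The rest of the GABA system was followed through 4 lists, and none of their genes was called in either sex. Among the other GABA-A subunit genes, Gabrb1 and Gabrb2 encode beta subunits, which most receptors need. Gabrb1 had a log2 fold change of -0.13 ± 0.05 in females (adjusted p = 0.484) and 0.07 ± 0.04 in males, and Gabrb2 had -0.07 ± 0.05 and 0.06 ± 0.04.

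Of 20 genes for anchoring and trafficking of the receptors, 11 were higher in EE and 9 lower in females (median 0.02), and 9 and 11 in males (-0.01). The smallest p values in females belonged to Iqsec3, a partner of the scaffold protein gephyrin (-0.13 ± 0.06), and Insyn1, a protein of inhibitory synapses (0.17 ± 0.10). In males they belonged to Trak2, a motor adaptor (0.13 ± 0.05), and Gabarap, which binds gamma subunits (-0.45 ± 0.17, at 2.61 ± 0.64 CPM in EE and 3.59 ± 0.53 in SH). Their adjusted p values were 0.433 to 0.649.

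Genes of GABA synthesis, release, uptake and chloride transport were higher in 7 of 10 cases in females (median 0.15) and in 8 of 9 in males (0.05), with 0 at an unadjusted p under 0.05. Abat, which breaks GABA down, had 0.24 ± 0.13 in females, and Gad2, which makes it, 0.29 ± 0.17 in females and -0.10 ± 0.08 in males. Summed interneuron markers, 3 of which are also in this list, ran from 1124 to 2145 CPM in SH and 1299 to 1805 in EE in females, and from 932 to 1064 and 904 to 1157 in males; their part in these values was not tested.

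Of the GABA-B receptor genes, which encode the G protein-coupled GABA receptors and their auxiliary subunits, 3 of 5 were higher in EE in females (median 0.02) and 4 of 5 in males (0.07). Gabbr2, an obligatory receptor subunit gene, was at 963 ± 55.3 CPM in female EE libraries and 1139 ± 82.0 in SH (-0.24 ± 0.05, adjusted p = 0.12), and its male value was -0.03 ± 0.05 (adjusted p = 0.906). Kctd16, an auxiliary subunit gene, had -0.09 ± 0.05 in females and 0.17 ± 0.05 in males (adjusted p = 0.267), and Kctd12 had 0.16 ± 0.17 in males.

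Variation among libraries was compared as a description over 12 female and 12 male libraries, which share depth and housing as well as cell makeup. The 2 genes most like each subunit gene were taken by the smaller of the 2 Pearson correlations of log2 CPM. Gabra3 went with Hace1 (0.85 in females, 0.86 in males) and Gria3, and Gabrg3 with Ncald (0.83, 0.89) and Ctnnd2. Gabra4 went with Tmem196 (0.88, 0.79) and Lmtk2, Gabra5 with Rundc3b (0.76, 0.83) and Itpr1, Gabrd with Slc4a3 (0.72, 0.72) and Ajm1, and Gabra2 with Itfg1 (0.67, 0.72) and Gucy1a1. For Gabrg1 the nearest genes, Golga4 (0.67, 0.63) and Lmo7 (0.62, 0.67), were less alike. Between subunit genes, Gabra5 and Gabrg3 had 0.53 and 0.63, whereas Gabra4 and Gabrg1 had -0.32 in females and 0.76 in males.

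The second question was whether chromatin at these genes opens or closes with enrichment. No region of the 7 genes was called in either sex, where edgeR called 0.0473% of 164926 female and 0% of 192834 male regions. At an unadjusted p under 0.05, 3 of 69 female regions (8.01% of all female regions) and 1 of 101 male regions (4.54%) passed. Female regions were higher in EE in 44 cases and lower in 25, with a median log2 fold change of 0.06 against -0.01 over all regions. Male regions were higher in 46 and lower in 55 (-0.02 against -0.00). Regions of the tables overlapped for 64 of 70 female regions (91.4%) and 52 of 101 male regions (51.5%), and 36 of those 64 had the same sign in both sexes.

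At the starts, Gabrg1 combined the lowest RNA density with well-covered open chromatin. Its female start region, chr5:70841832-70842735, averaged 15.4 ± 1.75 CPM over 3 EE libraries and 14.8 ± 1.87 CPM over 3 SH libraries (SD). The single libraries were 13.5, 17.0 and 15.8 CPM in EE and 15.97, 15.7 and 12.6 in SH, so the groups overlapped (log2 fold change 0.07 ± 0.13, adjusted p = 0.948). The male region, chr5:70840590-70844699, had 24.8 ± 3.26 in 6 EE libraries (20.8 to 28.6) and 24.2 ± 3.10 in 7 SH libraries (22.0 to 30.0), with 0.04 ± 0.08. The promoter window printed above lay inside these regions for 296 of its 300 bases in females, together with the region next to it, and for all 300 in males.

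Per kb of region width, the female start region of Gabrg1 had 16.7 CPM, that of Gabra2 15.3, Gabra4 11.4, Gabra3 10.0, Gabra5 9.80, Gabrd 6.62 and Gabrg3 5.49. In the wider male regions the order was Gabra2 (9.24), Gabra4 (7.61), Gabrg1 (5.95), Gabra3 (4.22), Gabra5 (3.85), Gabrd (3.38) and Gabrg3 (3.34). These are densities of the 1 region at or nearest to each start, and they depend on how wide each region was called. The Gabra4 region also holds the start of Gabrb1 in both sexes, so its density is not that of Gabra4 alone.

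The CG-rich Gabra2 start lay in the widest start region, chr5:71093520-71097035 in females, with 52.3 ± 1.97 CPM in EE and 55.2 ± 4.33 in SH (-0.08 ± 0.10). In males chr5:71091801-71097722 had 53.1 ± 5.68 and 56.1 ± 6.18 CPM (-0.08 ± 0.07). Gabra4 followed with 35.9 ± 3.22 and 36.1 ± 2.17 CPM in females (-0.00 ± 0.10) and 39.6 ± 1.58 and 40.5 ± 3.04 in males (-0.03 ± 0.06), in a region shared with the Gabrb1 start. At the other starts the log2 fold changes were 0.08 ± 0.21 and -0.05 ± 0.08 for Gabra3 (females, then males), 0.00 ± 0.23 and -0.01 ± 0.09 for Gabra5, 0.01 ± 0.25 and -0.04 ± 0.10 for Gabrg3, and -0.06 ± 0.18 and -0.11 ± 0.12 for Gabrd. Every start region overlapped between housings.

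Counted over the whole span, starts included, the number of regions differed between genes. Gabra2 held 16 female and 29 male regions, Gabra4 16 and 29, Gabrg3 20 and 25, and Gabra3 6 and 7. Gabra5 held 6 in each table, Gabrg1 3 in each, and Gabrd 3 and 2. Gabra4 was the most densely covered in males (43.2% of its span, 17.2% in females), and the long Gabrg3 the least (2.49% and 1.24%). Summed over its regions, no gene had groups apart in females: Gabra2 had 167 ± 12.5 CPM in EE and 162 ± 10.6 in SH, Gabra4 120.0 ± 7.05 and 117 ± 8.48, Gabra5 23.7 ± 2.19 and 21.6 ± 1.85, and Gabrg1 28.3 ± 3.04 and 27.7 ± 2.42. In males Gabra2 had 188 ± 17.98 and 195 ± 20.2, and Gabrg1 26.8 ± 3.62 and 26.3 ± 3.37.

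The region with the smallest p in females lay 38572 bases downstream of the Gabra5 start (centre), at chr7:57471369-57471606. It had 3.42 ± 0.25 CPM in EE (3.14 to 3.58) and 2.18 ± 0.54 in SH (1.56 to 2.54), groups that did not overlap, as was the case for 12.8% of all female regions. The log2 fold change was 0.63 ± 0.25 (adjusted p = 0.453), and the male region over it had 0.10 ± 0.16. Next came a Gabra2 region at chr5:70995384-70996331, with 15.5 ± 2.11 CPM in EE (14.1 to 17.9) and 12.7 ± 1.05 in SH (11.95 to 13.9). Its log2 fold change was 0.28 ± 0.13 (adjusted p = 0.59) and that of its male counterpart 0.03 ± 0.09. In males the smallest p belonged to a Gabra2 region at chr5:71052308-71052606, with 0.893 ± 0.230 CPM in EE and 0.617 ± 0.234 in SH (0.55 ± 0.22, adjusted p = 1), which overlapped no female region. The region with the greatest difference, chosen after its values were seen, was a narrow Gabra2 one at chr5:71033704-71033816, with 0.542 to 0.632 CPM in female EE libraries and 0.646 to 1.48 in SH (-0.90 ± 0.43, adjusted p = 0.593). For the other 5 genes the smallest p lay between 0.154 and 0.443 in females. In males the other 6 genes had smallest p values of 0.0718 to 0.597.

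**Figure D5:**
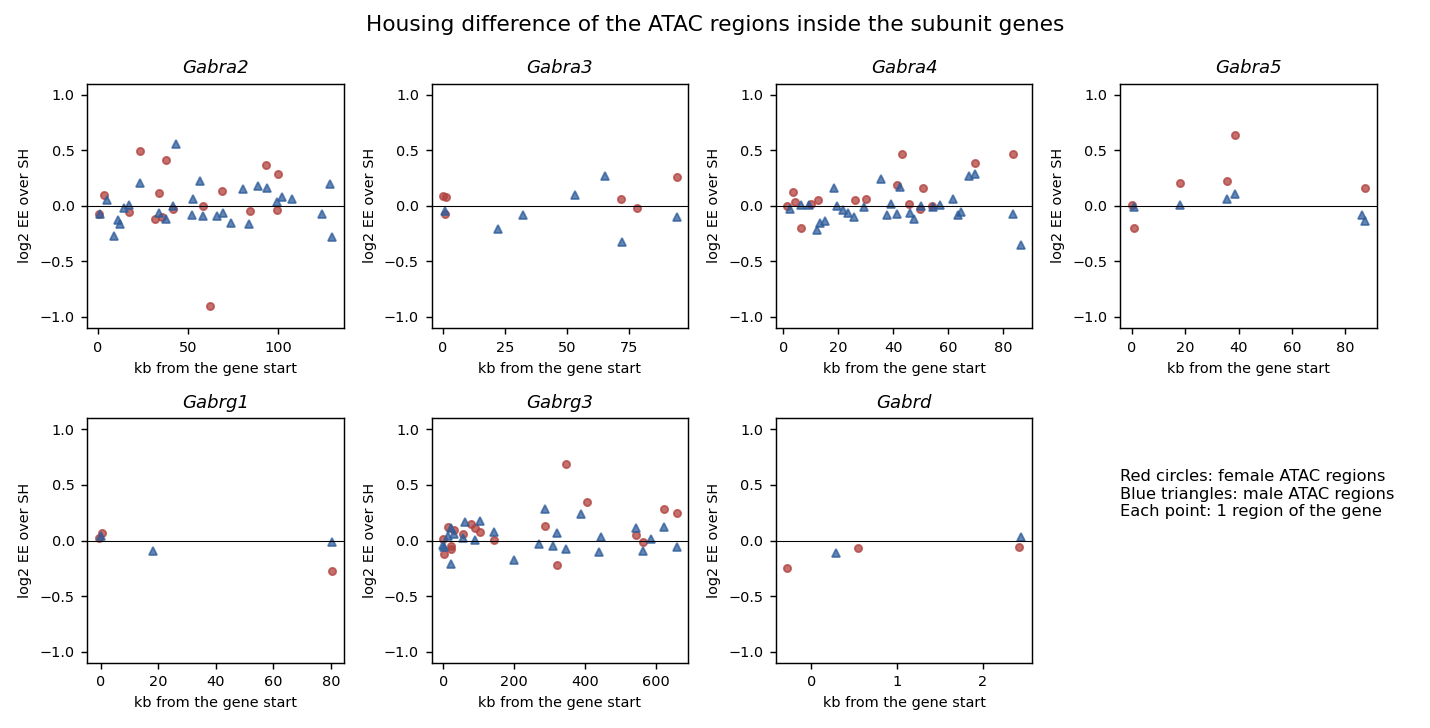
Log2 fold change of EE over SH for each ATAC region of the 7 genes against the distance of its centre from the gene start in kb, positive into the gene (red circles female, blue triangles male). Most points lie near 0 at every distance, and those past 0.5 in size belong to Gabra2, Gabra5 and Gabrg3.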

How the data were processed

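RNA was deposited by the authors as raw counts per Ensembl gene (introns and exons together), and ATAC as raw counts per region, with regions defined separately for females and males. The submitters' processing notes name mm10, STAR 2.5.4 and SAMtools 1.3.1, then MACS2 2.1.1 and DiffBind 3.2.2, besides bedtools, edgeR and DESeq2 1.16.1. The read counter is not given in the sources used here, nor is the merging of regions or whether region starts count from 0. Header names of the male RNA table are shifted by 1 column, so columns were taken by position.

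Whole tables were fitted in edgeR 4.0.16 (R 4.3.3) with TMM scaling and the default low-count filter. Housing was tested by the robust quasi-likelihood method, and a feature was called where its p, adjusted by Benjamini-Hochberg over the table, was under 0.05. The fits were tested on simulated data. DESeq2 1.42.0 and limma 3.58.1 were alternatives. The sexes were compared by an interaction in 1 fit. The members and lists were chosen with earlier results of these data known. Named are all 7 genes, their start regions, the regions with the smallest p and up to 2 genes per list and sex with the smallest p; some list genes are not reported here. Libraries of a group differed by more than sampling noise, so none was counted as a duplicate. Pairing of replicate numbers was an alternative only.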

Additional observations from a re-analysis of the deposited data

Results flagged for a closer look

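Single libraries stood apart in 5 of 42 groups of 6 or 7 libraries examined (28 RNA, 14 ATAC), where the gap to the nearest library exceeded the 95% critical share of the group's range. Chance flags about 1 group in 20. In female RNA, Gabra2 was at 154 CPM in EE replicate 6, against 175 to 185 in the other EE libraries, and Gabra4 at 184 CPM in EE replicate 2, against 203 to 212. At the starts in male ATAC, Gabra3 was at 10.3 CPM in SH replicate 6 (8.09 to 8.82 in the others), Gabra4 at 42.7 CPM in EE replicate 4 (38.3 to 39.9) and Gabrg3 at 5.36 CPM in EE replicate 5 (3.94 to 4.34). Gabrg1 was not among these groups.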

How the results depend on the processing

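The limits are few reads for Gabrg1 (47 to 167 per library), 3 libraries per group in female ATAC, and regions called per sex. No alternative could give a male adjusted p for Gabrg1 with DESeq2, which set it to NA. Equal replicate numbers were not taken as pairs, since in no table did every correlation of their deviations exceed 0.1. The correlations ran from 0.03 to 0.36 in female RNA, -0.07 to 0.25 in male RNA, -0.10 to 0.05 in female ATAC and -0.24 to 0.34 in male ATAC, and an EE library correlated best with its own number in 3 of 6, 2 of 6, 1 of 3 and 2 of 6 cases. In female RNA, 5 of 6 exceeded 0.1 and all 6 lay above the mean with the other numbers; whether equal numbers mark a shared source is not in the labels used here. Numbers in the male RNA column names differ from the replicate numbers, and its 5 pairs by column name had -0.16 to 0.22. In female RNA the column names also carry numbers other than the replicate numbers. Both female housings have the same numbers in the same order, so pairs by column name and by replicate number are the same there. With the replicate block, 1 of the 7 genes was called in female RNA, Gabrg1 (0.57, adjusted p = 0.0301; 95 genes overall), and 1 in the fit of both sexes (0.48, adjusted p = 0.0356; with the male column numbers, added after seeing the data, also 1, 0.49, adjusted p = 0.0338); by either numbering 0 were called in male RNA and the interaction, and by replicate number 0 in both ATAC tables. The count of called genes was also 1, in place of 0, with DESeq2 and with no low-count filter in female RNA and in the fit of both sexes (adjusted p = 0.00657 and 0.00246), and in the latter with the non-neuronal covariate (adjusted p = 0.036). Leaving out 1 library gave 0 to 1 in these comparisons: in the fit of both sexes Gabrg1 (0.43 to 0.52) passed without female SH replicate 2 (adjusted p = 0.0204), female EE replicate 3 (0.043) or male EE replicate 4 (0.0315), and in females it ran from 0.49 to 0.66. Counts stayed at 0 in male RNA, the interaction and both ATAC tables, also with wider or narrower windows around the starts.

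Gabrg1 RNA kept its sign under every alternative run. Values of other genes, all uncalled and near 0, changed sign as follows; the cause was not tested. With total count scaling, log2 fold changes were 0.019 (Gabra2), 0.0070 (Gabrg3), 0.013 (Gabrd) in female RNA, -0.0035 (Gabra2), -0.0098 (Gabra3), -0.028 (Gabra5), -0.0019 (Gabrg3) in male RNA, 0.011 (Gabra4) at the start in female ATAC, 0.00013 (Gabra5) in male ATAC, and 0.022 (Gabra2), 0.0088 (Gabrg3) in the interaction. With the striatal covariate they were 0.0032 (Gabra2), 0.0017 (Gabra3), 0.013 (Gabrd) in females and -0.0050 (Gabra5), 0.033 (Gabrd) in males. With no filter Gabra2 was 0.0062 in females, with DESeq2 the female Gabra4 start 0.0018, and with the replicate block the male Gabra5 start 0.0022; with the column numbers the Gabrd interaction was -0.013. Leaving out 1 library gave -0.020 to 0.029 (Gabra2), -0.080 to 0.045 (Gabrd), -0.058 to 0.020 (Gabrg3) in female RNA, -0.0041 to 0.059 (Gabra3), -0.028 to 0.043 (Gabra5), -0.083 to 0.016 (Gabrd) in male RNA, and -0.062 to 0.068 (Gabrd) in the interaction. At the starts it gave -0.068 to 0.20 (Gabra3), -0.075 to 0.050 (Gabra4), -0.11 to 0.12 (Gabra5), -0.20 to 0.098 (Gabrd), -0.038 to 0.15 (Gabrg1), -0.14 to 0.13 (Gabrg3) in females, and -0.054 to 0.00028 (Gabra4), -0.062 to 0.033 (Gabra5), -0.0044 to 0.10 (Gabrg1) in males.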
